A study of Sus scrofa with 92 samples.

Results

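Liver biopsies from 5 pigs given carbohydrate before trauma (Carbohydrate Prefed, CPF) were compared between Baseline (B) and 20 hours after full resuscitation began (FR20), with each animal set against itself. These 10 RNA-sequencing libraries belong to a series of 92, in which 18 fasted pigs (FS) were sampled alongside the 5 prefed pigs at B and at 2, 8 and 20 hours (FR2, FR8, FR20). All animals were juvenile male Yorkshire-Landrace pigs that had been fasted overnight, and the prefed ones then received a bolus of sugar syrup before anesthesia. After the spleen was removed, all received a blunt chest injury, a liver crush injury and hemorrhage to shock, then limited and full resuscitation with fluid, shed blood and ventilation. The syrup, anesthesia and instrumentation preceded B, so B is not an untreated liver, and no CPF animal without injury is among the samples. The animals are numbered 1 to 5 here in the order in which they were deposited. Animals 2 and 3 carry the label died and animals 1, 4 and 5 the label lived. FS animals are numbered 1 to 18 likewise.

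The liver stores and releases glucose, makes fatty acids and cholesterol, turns cholesterol into bile acids and secretes most plasma proteins. In the acute phase response, cytokines from injured tissue shift hepatocytes from albumin and other carrier proteins toward proteins of host defense. Secreted proteins fold in the endoplasmic reticulum, and a load that exceeds its capacity induces chaperones through the unfolded protein response. Cholesterol and fatty acid synthesis are switched on by the SREBP factors and, after a sugar meal, by the carbohydrate sensor ChREBP. The question of the comparison is which of these programs still differed from B at the last biopsy in the prefed animals.

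Total counts on genes ran from 8444057 to 12036356 at B (n = 5) and from 7182282 to 12371875 at FR20 (n = 5). The libraries held the markers of liver. The summed level of 9 matched hepatocyte markers was 136209 to 223475 counts-per-million (CPM) at B. The 5 matched striated muscle markers summed to at most 1.05 CPM in any of the 10 libraries. In the 3 FS animals left out of the comparison of fed groups, by contrast, albumin (ALB) lay at 0.197 to 52.7 CPM at B, where every other FS animal had at least 59500 CPM.

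A library of the comparison went against its label. Over 150 genes that differed most between animals relative to the spread within them, chosen without CPF animal 4 and FS animal 7, the libraries of CPF animals 1, 2, 3 and 5 had a mean correlation of 0.75 to 0.86 with the remaining libraries of the same animal (a correlation across genes, given as a description). CPF animals 1, 2, 3 and 5 took part in the choice of these genes, so their high values were in part built in. The B, FR2 and FR8 libraries of animal 4, which took no part, correlated with each other at 0.71 to 0.79. The library labelled animal 4, FR20 correlated with those 3 at −0.20 to −0.02, and with the B, FR8 and FR20 libraries of FS animal 7 at 0.30 to 0.92. The library labelled FS animal 7, FR2 did the opposite, with −0.40 to −0.12 against its own animal and 0.59 to 0.65 against the first 3 libraries of CPF animal 4. In 11 genes the other libraries of these animals were more than 1 apart on the log2 scale, and in 11 of them each of the 2 libraries lay nearer to the other animal.

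Single genes show the size of this (CPM scaled over 91 libraries). LYPLAL1, a gene of the lysophospholipase family, was at 0.136, 0.0885 and 0.159 CPM in CPF animal 4 at B, FR2 and FR8 and at 8.27 CPM in the library labelled FR20. In FS animal 7 it was at 7.26, 5.35 and 9.41 CPM at B, FR8 and FR20 and at 0.298 CPM in the library labelled FR2. ENSSSCG00000004665, which has no symbol here, was at 27.7, 15.7 and 46.5 CPM in animal 4 and at 0 in its library labelled FR20. The library labelled FS animal 7, FR2 had 45.5 CPM of it, against 0, 0 and 0.139 CPM in that animal's other libraries. The expression of some genes that change with time was displaced in the same 2 libraries. In the library labelled FS animal 7, FR2, ALB was at 30100 CPM, below the 80100 to 118000 CPM of 14 other FS libraries at FR2. In the library labelled animal 4, FR20, it was at 196000 CPM, above those 14. The other 4 CPF libraries at FR20 had 15600 to 27000 CPM. HRG, SERPINA6, SCD and NQO1 also lay outside the range of the 14 in the library labelled FS animal 7, FR2. In that library ITIH4 (8130 CPM) and HSPA5 (1250 CPM) lay within the range of the 14, which was 1330 to 11500 and 686 to 3040 CPM.

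**Figure D1:**
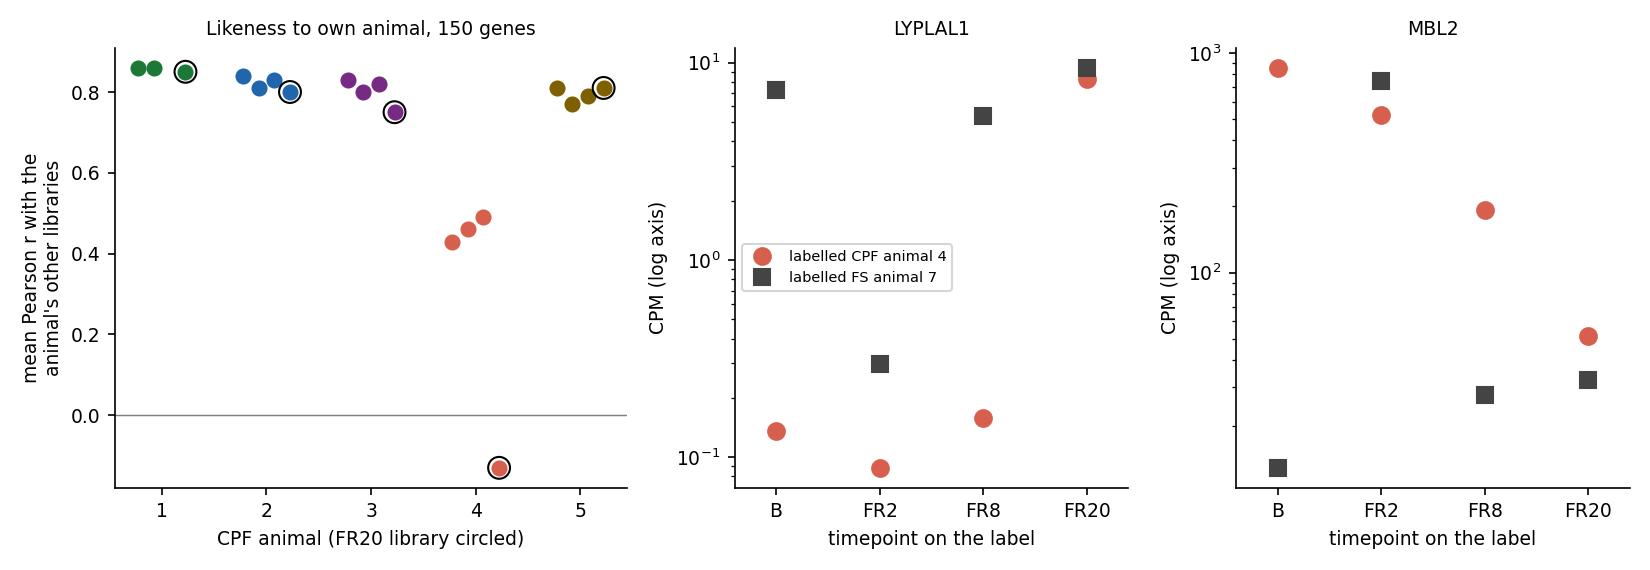
Left, mean Pearson correlation of each of 19 CPF libraries with the other libraries of its animal over 150 genes (1 point per library, FR20 circled). The FR20 library of animal 4 lies below 0, and the other 18 lie well above it. Middle and right, CPM on a log axis of LYPLAL1 and MBL2 in the libraries labelled CPF animal 4 (circles) and FS animal 7 (squares) by labelled timepoint, where the circle at FR20 lies with the squares and the square at FR2 with the circles.

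How these labels arose was not tested, and both libraries were kept under them. The library labelled animal 4, FR20 is called the discordant library below. The log2 fold changes of called genes in the prefed animals are given with it and then without it, where "without it" in parentheses means without the discordant library. It did not lie with the other FR20 libraries in other respects either. The 10 most abundant genes took 24.7% to 30.1% of the counts at B, 30.7% in the discordant library and 14.4% to 21.3% in the other 4 at FR20. Its correlation over all genes was 0.908 with the other FR20 libraries (median) and 0.949 with the B libraries of the other animals. Erythroid markers summed to 1238 CPM in it and to 41.9 to 201 CPM in the other 4.

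Across the 11779 genes tested in the fit of 19 CPF libraries, 407 were called, that is, past an adjusted p of 0.05 and a log2 fold change of 1 in size (3.46% of those tested). Of these, 165 were higher at FR20 (1.4%) and 242 lower (2.05%). In 117 of the 165 and 188 of the 242 the change had the same direction in 5 of 5 animals. The values of FR20 and B did not overlap in 48 of the 165 and 67 of the 242, where 1.62% and 1.71% of all genes lay wholly higher and wholly lower. Without the discordant library 1007 of 11718 genes were called (8.59%), 417 higher (3.56%) and 590 lower (5.03%), and 159 of the 165 and 230 of the 242 remained called in the same direction. With all 10 libraries, 2660 of the 11779 genes had an unadjusted p under 0.05 in edgeR's quasi-likelihood test. DESeq2 called 344 of them higher and 339 lower. Such counts given below for single lists are to be read against these.

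The discordant library had the smallest change of the 5 animals in 90 of the 165 higher genes and 166 of the 242 lower ones. Its median change on the log2 scale was 0.71 over the higher genes and −0.56 over the lower ones, where the other 4 animals had medians of 1.35 to 1.78 and −1.93 to −1.45. It lay within the range of the 5 B values in 81 of the 165 and 144 of the 242. Among the genes called without it, it changed in the same direction as the other 4 in 210 of 417 and 274 of 590. In 257 of the 417 and 398 of the 590 the other 4 FR20 values lay beyond every B value, where 5.62% and 6.8% of all genes did so.

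Leaving out a whole animal moved the count by more than 1.5 times in each case. The counts were 56, 178, 48, 1047 and 34 when animals 1, 2, 3, 4 and 5 were dropped in turn. With the discordant library also left out, dropping animal 1, 2, 3 or 5 gave 832, 988, 655 and 706, against 1007 with all of these animals. The scaling mattered as well. The median log2 fold change of all genes was 0.01 under TMM, which scales libraries on the bulk of their genes, and 0.41 when only library totals were used, where 928 genes were called higher and 117 lower. All changes below are on the TMM scale and so are relative to the bulk of the genes. In whole tissue, fewer cells of a type and less RNA per cell cannot be told apart.

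Genes of cholesterol synthesis and uptake were lower at FR20. All 19 tested members of the cholesterol synthesis and uptake list had a log2 fold change below 0, with a median of −1.5 against 0.01 over all genes, and 10 of 19 fell (0 rose). Without the discordant library 17 of 19 fell and the median was −1.88.

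FDPS makes farnesyl diphosphate, the building block of squalene. Its level was 694, 638, 401, 591 and 671 CPM in animals 1 to 5 at B and 105, 167, 47.7, 261 and 161 CPM at FR20. The groups did not overlap, and the discordant library was the highest of the 5 at FR20. FDPS fell with a log2 fold change of −2.14 ± 0.25 (SE, n = 5 animals, adjusted p = 0.00113, edgeR quasi-likelihood test), and of −2.42 ± 0.21 without the discordant library (n = 4, adjusted p = 2.26e-06).

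IDI1, the isomerase that precedes FDPS in the pathway, went from 671, 529, 469, 592 and 572 CPM to 24.2, 81.8, 13.1, 186 and 84.0 CPM. Every animal had at least 469 CPM at B and at most 186 CPM at FR20. Its log2 fold change was −3.16 ± 0.51 (adjusted p = 0.0045) and −3.71 ± 0.46 without the discordant library, the largest fall of the list in both fits.

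The first steps of the pathway moved in the same direction. ACAT2, the cytosolic thiolase that joins acetyl-CoA units, went from 103 to 163 CPM at B to 13 to 65.1 CPM at FR20 (log2 fold change −2.07 ± 0.32, adjusted p = 0.00421, −2.30 ± 0.31 without it). HMGCS1, the cytosolic HMG-CoA synthase, was at 1012, 1135, 807.5, 489.7 and 645 CPM at B and 76.2, 156, 65.7, 498 and 292 CPM at FR20 (−2.12 ± 0.57, adjusted p = 0.0399, −2.69 ± 0.51 without it). The groups did not overlap for ACAT2, whereas for HMGCS1 the discordant library had the same level as animal 4 at B. MVK, mevalonate kinase, fell by 1.12 on the log2 scale (SE 0.27, adjusted p = 0.023, −1.17 ± 0.29 without it), and its groups did not overlap.

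Some genes that turn sugar into fat fell as well. Of 17 tested members of the list for glucose uptake and lipogenesis after feeding, 3 fell and 0 rose (median −0.67). Without the discordant library 7 fell and 3 rose.

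SCD, which desaturates newly made fatty acids, had the largest fall among the called genes named here. It stood at 1684, 1828, 1212, 681 and 482 CPM at B and at 37.2, 54.2, 36.0, 192 and 48.2 CPM at FR20. Animals 1, 2, 3 and 5 reached similar levels at FR20 although their B levels were spread, and the discordant library stood apart from them. The log2 fold change was −4.03 ± 0.51 (adjusted p = 0.00157) and −4.48 ± 0.47 without it.

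FADS1, a desaturase of polyunsaturated fatty acids, went from 1451, 958.5, 519.8, 1143 and 1298 CPM to 266.5, 88.7, 104, 517 and 203 CPM (−2.26 ± 0.39, adjusted p = 0.00659, −2.65 ± 0.36 without it). MLXIPL encodes ChREBP itself, and it was at 130.2 to 236.5 CPM at B and at 27.8 to 100.5 CPM at FR20, with no overlap (−1.42 ± 0.23, adjusted p = 0.00437, −1.56 ± 0.24 without it). PGD, an enzyme of the pentose phosphate pathway that supplies NADPH, is a member that went the other way without the discordant library (log2 fold change 1.55, adjusted p = 0.00104). With it, the value of PGD was 1.27 ± 0.37 (adjusted p = 0.0528).

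Enzymes of sugar entry outside that list were among the genes with the smallest adjusted p. KHK, ketohexokinase, starts the breakdown of fructose, which the syrup contained. It was at 512, 383, 294.5, 579.6 and 545 CPM at B and at 93.7, 99.6, 76.6, 339.7 and 94.4 CPM at FR20. Animals 1, 2, 3 and 5 lay close together, and the discordant library lay within the range of B. The log2 fold change was −1.86 ± 0.30 (adjusted p = 0.00437), or −2.30 ± 0.21 without it. PGM2, a phosphoglucomutase, fell by 1.41 on the log2 scale (SE 0.21, adjusted p = 0.00413, −1.49 ± 0.23 without it), from 82.7 to 170 CPM at B to 25.4 to 56.3 CPM at FR20.

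**Figure D2:**
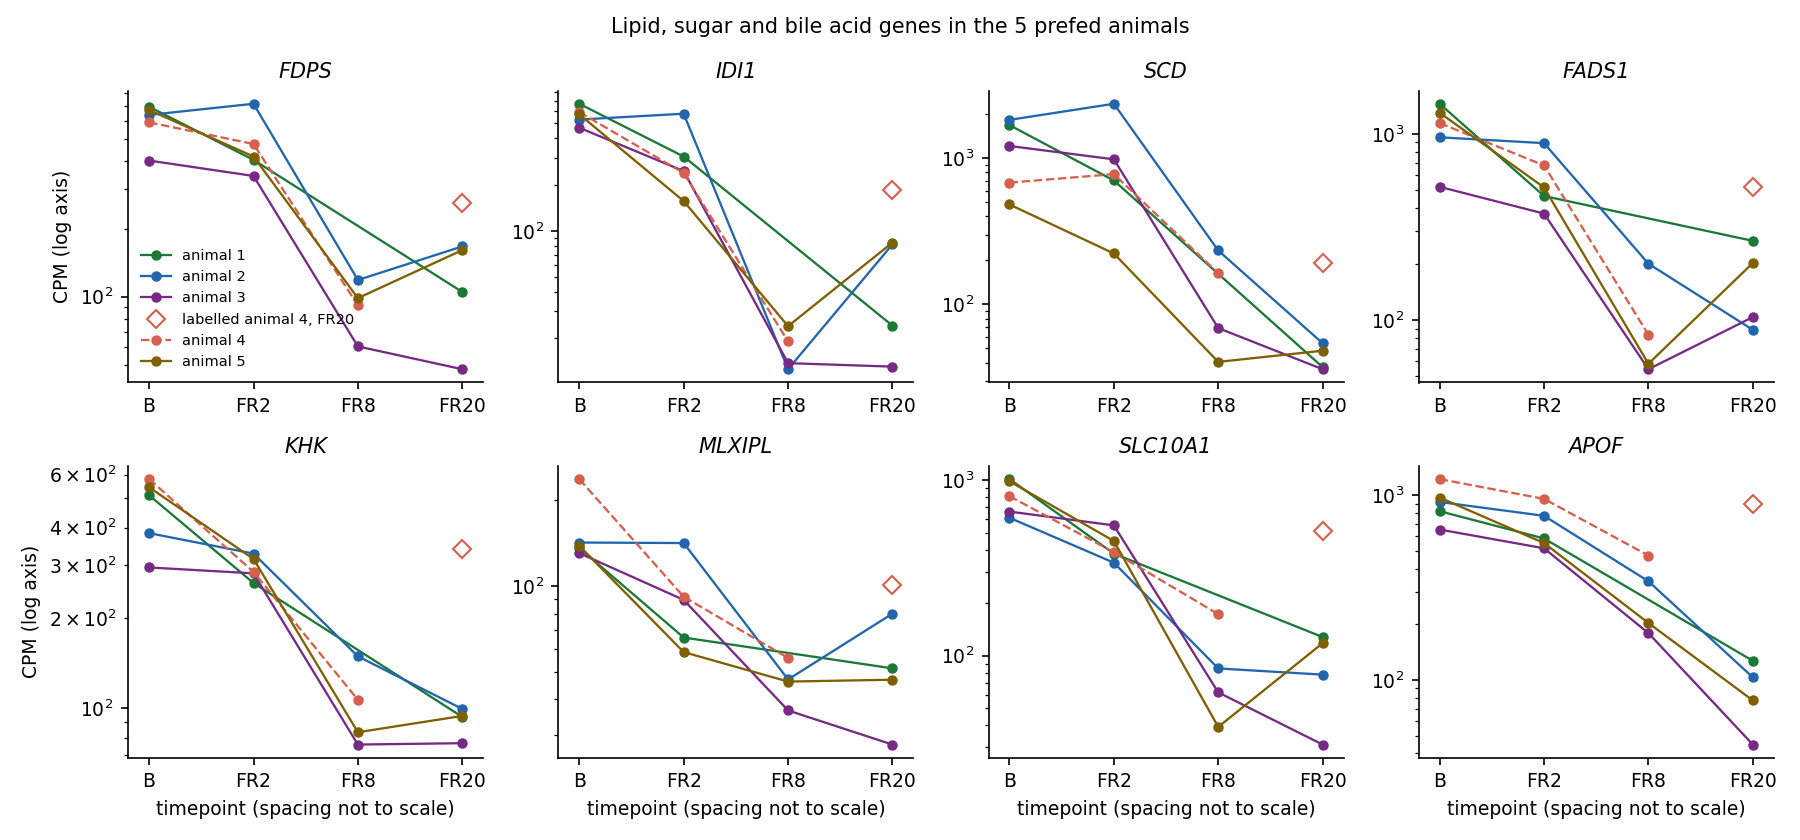
CPM on log axes of 8 lipid, sugar and bile acid genes in each prefed animal at B, FR2, FR8 and FR20 (1 line per animal, dashed for animal 4, open diamond for the discordant library). Levels at FR8 and FR20 lie below B in animals 1, 2, 3 and 5, and the diamond lies above their FR20 points in each panel. Animal 1 has no FR8 point, since that library was omitted.

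The low levels were already present at FR8. The median of FDPS was 638, 417.5, 95 and 161 CPM at B, FR2, FR8 and FR20, and that of IDI1 572, 245, 16.5 and 81.8 CPM. For SCD the medians were 1212, 778, 116 and 48.2 CPM. For FADS1 they were 70.9 CPM at FR8 and 203 CPM at FR20. The medians of FDPS, IDI1 and FADS1 were thus higher at FR20 than at FR8 and that of SCD was lower, differences that were not tested.

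Genes of lipoproteins and bile acids called by edgeR's quasi-likelihood test were all lower with all 10 libraries. Of 11 tested genes for apolipoproteins and lipoprotein assembly, 3 fell and 0 rose (4 and 1 without the discordant library). LIPC, hepatic lipase, was at 134 to 203 CPM at B and 43.0 to 130 CPM at FR20 (−1.24 ± 0.24, adjusted p = 0.00995, −1.47 ± 0.22 without it). APOE, the ligand for remnant uptake, fell by 1.18 (SE 0.24, adjusted p = 0.0128, −1.45 ± 0.20 without it), and APOC3, an inhibitor of lipoprotein lipase, by 1.15 (SE 0.25, adjusted p = 0.0157, −1.27 ± 0.25 without it), both on the log2 scale. APOA4 rose only without the discordant library (1.68, adjusted p = 0.0357) and had a value of 1.26 ± 0.57 with it (adjusted p = 0.199).

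APOF, an inhibitor of lipid transfer between lipoproteins and not on the list, is a gene in which the discordant library stood far from the others. The levels were 822, 922, 653.5, 1226 and 974 CPM at B and 127, 103, 44.7, 897 and 77.5 CPM at FR20. Animals 1, 2, 3 and 5 fell to between 44.7 and 127 CPM, while the discordant library stayed within the range of B. The log2 fold change was −2.59 ± 0.43 with it (adjusted p = 0.00493) and −3.30 ± 0.22 without it (adjusted p = 7.74e-08).

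Of 12 tested genes of bile acid synthesis and transport 3 fell and 0 rose (3 and 3 without the discordant library). DESeq2 called 3 lower and 2 higher with all 10 libraries. The highest member in edgeR, SLC51A, had a log2 fold change of 2.81 with all 10 libraries and was not called. SLC10A1, which takes bile acids up from blood, went from 1015, 611, 663, 811 and 986 CPM to 128, 77.9, 31.1, 516 and 118 CPM (−2.66 ± 0.47, adjusted p = 0.00736, −3.18 ± 0.40 without it), with no overlap. BAAT, which conjugates bile acids to amino acids, was at 246 to 428 CPM at B and at 45.7, 43.6, 38.1, 732.5 and 19 CPM at FR20 (−2.27 ± 0.56, adjusted p = 0.0277, −3.08 ± 0.33 without it). The discordant library held more BAAT than any library at B. CYP27A1, a sterol hydroxylase of the acidic pathway, fell by 1.17 on the log2 scale (SE 0.27, adjusted p = 0.0219, −1.47 ± 0.24 without it).

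Fatty acid oxidation and ketone body genes split. Of 23 tested members 2 rose and 2 fell (3 and 4 without the discordant library), with a median of −0.15. ACAA2, the thiolase of mitochondrial oxidation, was at 252 to 889 CPM at B and 64.2 to 550 CPM at FR20 (−1.33 ± 0.24, adjusted p = 0.00827, −1.5 ± 0.24 without it). BDH1, which interconverts ketone bodies, fell by 1.38 on the log2 scale (SE 0.32, adjusted p = 0.0219, −1.8 ± 0.26 without it). PLIN2, which coats lipid droplets, was at 24.9, 56.5, 45.9, 51.8 and 21.6 CPM at B and at 149.8, 249, 425, 31.8 and 492 CPM at FR20. It was above every B level in 4 animals and within the B range in the discordant library (2.53 ± 0.60, adjusted p = 0.0239, 2.94 ± 0.47 without it). BBOX1, the last enzyme of carnitine synthesis, fell in 5 of 5 animals with no overlap (−1.34 ± 0.19, adjusted p = 0.00344, −1.41 ± 0.21 without it).

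Most carrier proteins of plasma fell. Of 11 tested negative acute phase proteins 7 fell and 0 rose, all 11 had a log2 fold change below 0, and the median was −1.24 (8 of 11 fell, median −1.57, without the discordant library).

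ALB was at 104023, 94896, 130881, 167414 and 140845 CPM at B and at 26337, 18708, 25295, 195264 and 15251 CPM at FR20. The 4 animals other than animal 4 lay below every B value and the discordant library above every B value. The log2 fold change was −1.78 ± 0.41 (adjusted p = 0.0213), and −2.43 ± 0.22 without it (adjusted p = 3.22e-06). ALB is so abundant that its level alters the share of counts left for other genes, which TMM scaling is meant to take up.

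Transthyretin (TTR), which carries thyroid hormone and retinol-binding protein, went from 6511, 5465, 4023, 5840 and 6780 CPM to 1810, 916, 332.5, 4753 and 790.4 CPM (−2.03 ± 0.45, adjusted p = 0.0179, −2.79 ± 0.27 without it). Transferrin (TF), the iron carrier, went from 29111, 24970, 24676, 35067 and 30317 CPM to 7942, 9970, 5354, 27697 and 2812 CPM (−1.77 ± 0.33, adjusted p = 0.00938, −2.12 ± 0.28 without it). In both, the discordant library lay within the range of B and the other 4 below it. SERPINA6, the corticosteroid-binding globulin, was at 375 to 485 CPM at B and at 79.0, 19.8, 35.1, 355 and 45.3 CPM at FR20 (−2.44 ± 0.50, adjusted p = 0.0128, −3.26 ± 0.32 without it). AHSG (fetuin-A) fell by 1.24 on the log2 scale (SE 0.28, adjusted p = 0.0195, −1.57 ± 0.22 without it), with no overlap between the groups.

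Fewer of the positive acute phase proteins were called. Only 13 of the 26 symbols on their list were matched to an identifier, against 11 of 12 for the negative ones. Of 13 tested members 4 rose and 1 fell, with a median of 0.58 (5 rose and 1 fell without the discordant library).

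ITIH4, a major acute phase protein of the pig, was at 4477, 1319, 1019, 844 and 1253 CPM at B and at 14780, 25955, 10796, 1841 and 11203 CPM at FR20. It was higher in 5 of 5 animals, although the discordant library lay within the B range (2.92 ± 0.46, adjusted p = 0.00437, 3.24 ± 0.36 without it). LBP, which hands bacterial lipopolysaccharide to its receptor, was at 187, 109.8, 86.6, 157 and 155 CPM at B and at 338, 475, 365, 304 and 279 CPM at FR20. Here all 5 FR20 values, the discordant library included, lay above all 5 B values (1.39 ± 0.22, adjusted p = 0.00425, 1.48 ± 0.22 without it).

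FGA, the fibrinogen alpha chain, behaved like LBP, with 1812 to 3773 CPM at B and 4274 to 8121 CPM at FR20 (1.13 ± 0.24, adjusted p = 0.014, 1.17 ± 0.24 without it). LCN2, a siderophore-binding protein, was at 18.6, 1.05, 0.934, 0.568 and 1.04 CPM at B and at 28.7, 59.5, 29.1, 0.375 and 11.1 CPM at FR20 (3.25 ± 0.81, adjusted p = 0.0299, 3.62 ± 0.62 without it). ITIH3, on this list by its family, fell by 1.13 on the log2 scale (SE 0.20, adjusted p = 0.00736, −1.26 ± 0.19 without it).

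Of 20 tested coagulation and fibrinolysis genes 6 fell and 0 rose (7 and 0 without the discordant library, median −0.62 and −0.78). HRG, histidine-rich glycoprotein, went from 14841, 13356, 9511, 9429 and 18673 CPM to 1934, 1939, 612, 10438 and 1120 CPM (−2.51 ± 0.54, adjusted p = 0.0151, −3.37 ± 0.26 without it). The other 4 animals fell far below B and the discordant library stayed within B. Anticoagulants and a contact factor were among the others. SERPIND1, heparin cofactor II, changed by −1.54 ± 0.30 (adjusted p = 0.00993, −1.89 ± 0.24 without it), PROC, protein C, by −1.16 ± 0.24 (adjusted p = 0.0128, −1.47 ± 0.18 without it), SERPINC1, antithrombin, by −1.1 ± 0.23 (adjusted p = 0.0149, −1.35 ± 0.19 without it) and KLKB1, plasma prekallikrein, by −1.33 ± 0.28 (adjusted p = 0.0144, −1.73 ± 0.20 without it).

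Of 21 tested complement genes 3 fell and 0 rose (5 and 0 without the discordant library). C8A and C8B, chains of a membrane attack component, fell by 1.1 (SE 0.27, adjusted p = 0.0257, −1.48 ± 0.18 without it) and 1.43 (SE 0.35, adjusted p = 0.0265, −1.98 ± 0.20 without it) on the log2 scale. MBL2, mannose-binding lectin, was called as well (−2.38 ± 0.57, adjusted p = 0.0257, −2.03 ± 0.54 without it), but its B level was 97.9, 108, 1117, 896 and 10.6 CPM in the 5 animals. At FR20 it was at 25.4, 23.4, 40.4, 51.4 and 13.4 CPM, so animal 5 had slightly more than at B.

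Called genes of the unfolded protein response were all higher with all 10 libraries. Of 20 tested genes of the unfolded protein response 5 rose and 0 fell, 17 had a log2 fold change above 0, and the median was 1.09. Without the discordant library 12 rose and 1 fell, and the median was 1.22.

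HSPA5 encodes BiP, the main chaperone of this compartment. It was at 696.5, 1004, 539.6, 439.9 and 427 CPM at B and at 1735, 1828, 4260, 472 and 3040 CPM at FR20. Animals 1, 2, 3 and 5 exceeded every B value, animal 3 by the most, and the discordant library lay within B. The log2 fold change was 1.8 ± 0.38 (adjusted p = 0.0146) and 2.10 ± 0.32 without it (adjusted p = 0.000329). HSP90B1, the HSP90 form of the same compartment, gave 1.5 ± 0.36 (adjusted p = 0.0256, 1.8 ± 0.29 without it).

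CRELD2, a folding factor, was at 24.2 to 42.3 CPM at B and at 80.3, 117, 579, 19.3 and 309 CPM at FR20 (2.44 ± 0.65, adjusted p = 0.0392, 2.92 ± 0.52 without it). SEL1L is part of the machinery that removes misfolded proteins (1.53 ± 0.43, adjusted p = 0.0459, 1.61 ± 0.44 without the discordant library). It was at 21.5 CPM in the discordant library, against 2.84 CPM in animal 4 at B. In animal 2 it was at 11.7 CPM at B and 11.4 CPM at FR20. CREB3L3 is a membrane-bound factor of the hepatocyte endoplasmic reticulum that drives acute phase and lipid genes. It went from 210.1, 144, 100.7, 127 and 146 CPM to 623, 371, 694, 159 and 527 CPM (1.74 ± 0.34, adjusted p = 0.00995, 2.02 ± 0.25 without it).

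The median of HSPA5 was 539.6, 1317, 3449 and 1828 CPM at B, FR2, FR8 and FR20. That of ITIH4 was 1253, 4776, 8900 and 11203 CPM over the same timepoints, and that of ALB 130881, 95157, 44905 and 25295 CPM. The median of BiP was thus highest at FR8, while ITIH4 and ALB were farthest from B at FR20. These orders are of medians over 4 or 5 animals and were not tested.

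**Figure D3:**
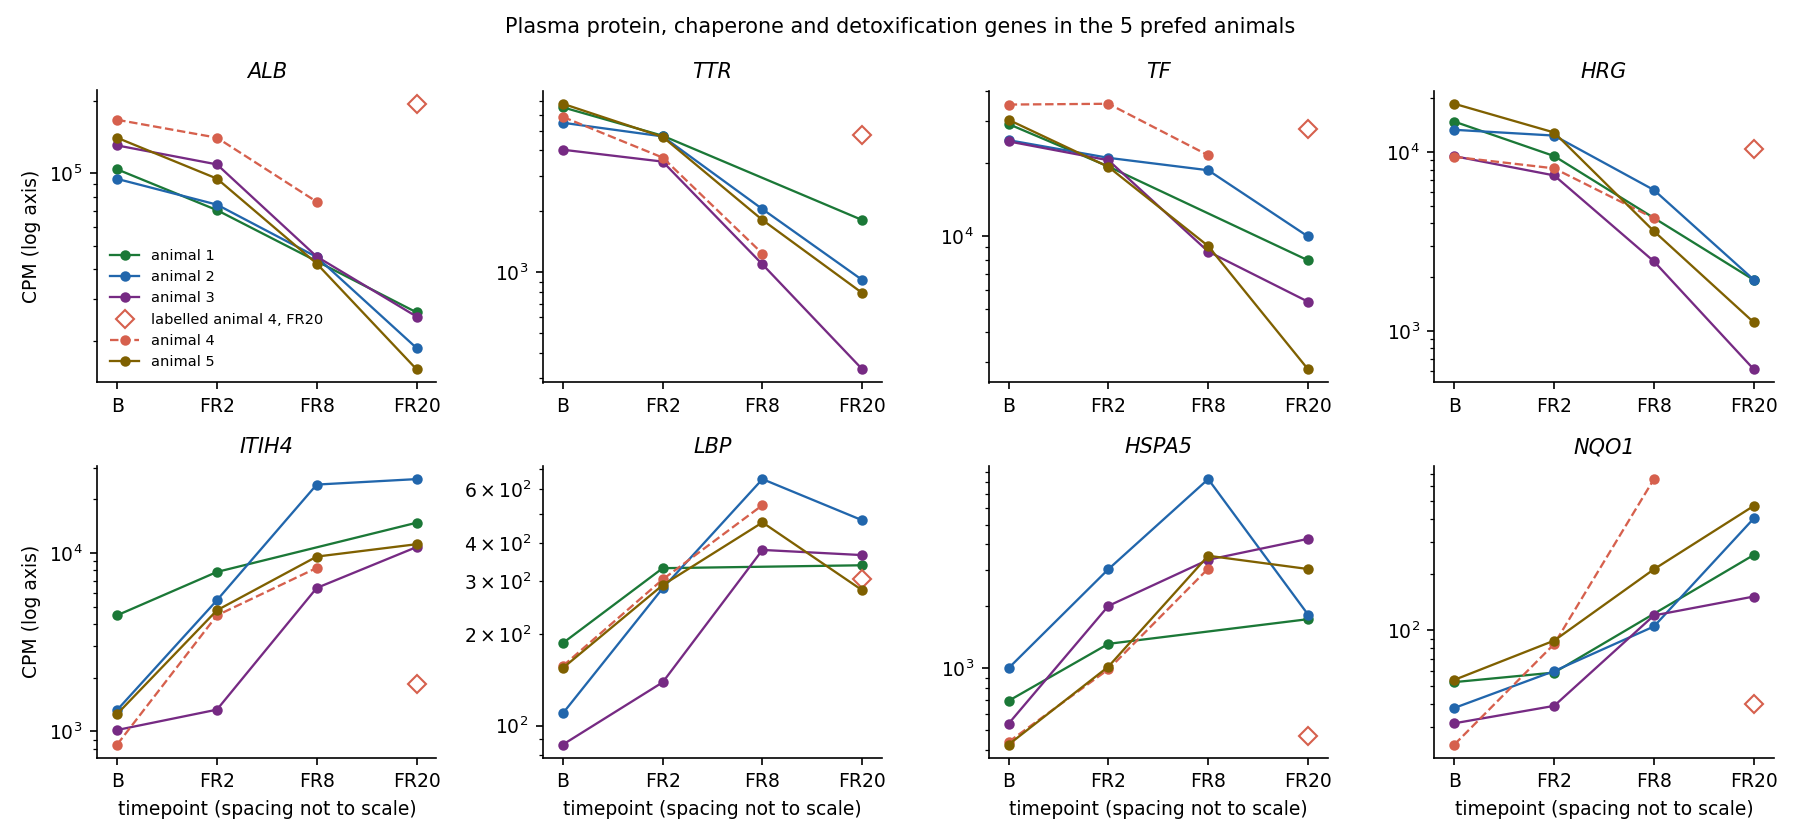
CPM on log axes of 8 genes of plasma proteins, a chaperone and a detoxification enzyme in each prefed animal at B, FR2, FR8 and FR20 (symbols as in the plot of lipid genes). ALB, TTR, TF and HRG lie below B at FR20 in animals 1, 2, 3 and 5 and ITIH4, LBP, HSPA5 and NQO1 above it, and the diamond of the discordant library lies with the other animals only for LBP.

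Detoxification genes moved in both directions. Of 12 tested members 1 rose and 2 fell (5 and 4 without the discordant library). NQO1, a quinone reductase induced by the antioxidant factor NRF2, was at 52.4, 38.0, 31.4, 24.1 and 53.9 CPM at B and at 255, 401, 152, 39.9 and 469 CPM at FR20 (2.68 ± 0.54, adjusted p = 0.0124, 3.02 ± 0.38 without it). CAT, catalase, was at 5235 to 7334 CPM at B and at 2748, 1282, 800.1, 7409 and 1528 CPM at FR20 (−1.60 ± 0.36, adjusted p = 0.0183, −2.01 ± 0.29 without it). The discordant library had the highest CAT level of all 10.

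The cytochrome CYP2E1 fell by 1.60 on the log2 scale (SE 0.41, adjusted p = 0.0336, −2.16 ± 0.33 without it). CYP1A2, another hepatocyte cytochrome, was at 1124, 248, 181, 717 and 617 CPM at B and at 15.4, 6.09, 4.55, 1140 and 13.7 CPM at FR20. It missed the threshold with the discordant library (−3.73 ± 1.16, adjusted p = 0.0688) and had a log2 fold change of −5.63 ± 0.23 without it (adjusted p = 1.3e-10). GSTT1, a glutathione transferase, fell in both fits (−2.70 ± 0.55, adjusted p = 0.0128, and −3.72 ± 0.25 without the discordant library).

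Targets of glucocorticoids had the widest gap between the medians of the 2 fits among the lists with 8 or more tested members. Of 11 tested members 2 fell and 0 rose, with a median of −1.35, and without that library 8 fell, with a median of −2.49. KLF9, a transcription factor induced by cortisol, went from 295, 459.5, 408, 371 and 353 CPM to 50.4, 72.1, 20.9, 479.5 and 19.8 CPM (−2.31 ± 0.59, adjusted p = 0.0335, −3.34 ± 0.28 without it). PER1, a clock gene that also answers to cortisol, missed the threshold with that library (−2.17 ± 0.81, adjusted p = 0.125) and fell without it (−3.60 ± 0.49, adjusted p = 0.000132). Of 18 clock genes 0 were called by edgeR's quasi-likelihood test (5 at an unadjusted p under 0.05, 0 higher and 2 lower by DESeq2), and without the discordant library 5 fell.

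IGF1, insulin-like growth factor 1, and IGFALS, its binding partner, fell. Of 11 tested genes of insulin-like growth factor and insulin signalling 2 fell and 0 rose (5 and 0 without the discordant library). IGF1 was at 15.2, 11.5, 9.80, 8.23 and 7.39 CPM at B and at 3.50, 6.28, 1.60, 7.04 and 1.99 CPM at FR20, without overlap (−1.40 ± 0.40, adjusted p = 0.0477, −1.77 ± 0.38 without it). IGFALS, which holds it in the circulating complex, changed by −2.19 ± 0.60 (adjusted p = 0.0431), and by −3.30 ± 0.22 without the discordant library.

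With all 10 libraries, genes of glucose release and nitrogen disposal were called at about the share over all genes (3.46%). Without the discordant library they were called more often than all genes were (8.59%). Of 12 tested gluconeogenesis genes 1 rose and 0 fell, and that 1 was CREB3L3 (1 and 3 without the discordant library). Of 12 glycogen genes 0 were called (3 at an unadjusted p under 0.05 in edgeR, 0 by DESeq2), and without the discordant library 3 fell. Of 23 genes of the urea cycle and amino acid catabolism 1 fell, OTC, which makes citrulline (−1.26 ± 0.32, adjusted p = 0.03, −1.70 ± 0.23 without it), and without the discordant library 3 did.

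The feedback inhibitor NFKBIA and the kinase IRAK2 fell. NFKBIA, the inhibitor that NF-kappaB induces, was at 64.3, 57.5, 87.8, 111 and 67.5 CPM at B and at 30.1, 20.2, 32.7, 35.6 and 32.6 CPM at FR20. The groups did not overlap, and the discordant library lay with the other 4 (−1.35 ± 0.23, adjusted p = 0.00699, −1.37 ± 0.26 without it). IRAK2, a kinase below the Toll-like receptors, fell by 1.48 on the log2 scale with no overlap (SE 0.34, adjusted p = 0.021, −1.64 ± 0.37 without it). Both are counted among the 22 tested innate sensors and NF-kappaB regulators, of which 2 fell and 0 rose (median −0.13), and without the discordant library 2 fell and 2 rose. MYD88, the adaptor of the same receptors, had 0.91 ± 0.21 (adjusted p = 0.0218), under the fold threshold, and rose without the discordant library (1.12, adjusted p = 0.000302). TLR6, a Toll-like receptor outside the list, rose with no overlap, from 1.12 to 2.87 CPM at B to 3.38 to 7.15 CPM at FR20 (1.74 ± 0.29, adjusted p = 0.00514, 1.89 ± 0.29 without it).

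Among cytokines and interferon genes, single members were called. Of 19 tested cytokines and genes of JAK-STAT feedback 1 rose, OSM, a cytokine of the interleukin-6 family, at 0, 0.0877, 0.654, 0.142 and 0 CPM at B and 0.226, 0.281, 7.24, 0 and 0.435 CPM at FR20, so that animal 3 stood apart (2.75 ± 0.78, adjusted p = 0.0493, 2.99 ± 0.70 without it). In that list 1 rose and 1 fell without the discordant library. Of 16 chemokines and adhesion molecules 0 were called (5 at an unadjusted p under 0.05 in edgeR, 2 higher and 1 lower by DESeq2), and without the discordant library 2 rose and 1 fell. Of 17 tested interferon-stimulated genes 16 had a log2 fold change below 0 and 1 fell, OAS2, an antiviral RNA sensor (−1.21 ± 0.26, adjusted p = 0.0144, −1.14 ± 0.27 without it), and without the discordant library 2 fell.

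Other stress programs are read against the 1.4% of all genes called higher and 2.05% called lower. Of 18 tested targets of the hypoxia inducible factor 2 rose, P4HA2, a collagen prolyl hydroxylase (1.09 ± 0.25, adjusted p = 0.0218, 1.34 ± 0.18 without it), and EGLN3, an oxygen sensor (1.51 ± 0.39, adjusted p = 0.0345, 1.8 ± 0.31 without it), and without the discordant library 4 rose. Among the p53 and apoptosis genes CASP8, an initiator caspase, rose (1.29 ± 0.31, adjusted p = 0.0252, 1.48 ± 0.30 without it) and TP53INP1, a p53 target, fell (−1.99 ± 0.49, adjusted p = 0.0277, −2.70 ± 0.39 without it). Of 17 heat shock genes the small chaperone CRYAB rose (1.36 ± 0.38, adjusted p = 0.0464, 1.67 ± 0.33 without it) and the co-chaperone BAG3 fell (−1.94 ± 0.47, adjusted p = 0.027, −2.74 ± 0.26 without it), and 1 rose and 1 fell without the discordant library as well. Of 16 immediate early genes 1 rose, IER3 (1.90 ± 0.48, adjusted p = 0.0321, 1.42 ± 0.43 without it), which was at 121.6 CPM in the discordant library and at 30.6 to 195 CPM in the other 4. Without that library 1 rose and 3 fell.

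The injury and matrix genes LGALS3 and EFEMP1, outside the lists, were among the rises with the smallest adjusted p. Of 22 tested genes of extracellular matrix and fibrosis 1 was called (2 without the discordant library), where 3.46% (8.59%) of all genes were. That gene was TIMP1, an inhibitor of matrix metalloproteinases, with 5.74, 20.1, 35.6, 11.1 and 9.07 CPM at B and 64.2, 127, 288, 4.32 and 68.7 CPM at FR20 (2.51 ± 0.55, adjusted p = 0.017, 2.92 ± 0.35 without it). LGALS3, galectin-3, a lectin of macrophages and injured epithelium, was at 0.263 to 2.15 CPM at B and at 8.70, 9.18, 31.0, 1.13 and 22.1 CPM at FR20 (3.72 ± 0.57, adjusted p = 0.00421, 4.06 ± 0.41 without it). EFEMP1, a fibulin of the matrix, rose in 5 of 5 animals, from 2.27 to 10.1 CPM at B to 3.66 to 32.1 CPM at FR20 (1.75 ± 0.25, adjusted p = 0.00344, 1.92 ± 0.22 without it).

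Several further genes with small adjusted p had other roles. COG6, a tethering subunit of the Golgi, rose by 1.21 ± 0.17 on the log2 scale, with 3.11 to 6.49 CPM at B and 9.20 to 16 CPM at FR20 and no overlap (adjusted p = 0.00344, 1.27 ± 0.18 without it). CDA, cytidine deaminase, was at 0.11 to 0.654 CPM at B and at 0.657 to 24.4 CPM at FR20 (4.35 ± 0.79, adjusted p = 0.00827, 4.63 ± 0.74 without it). HGFAC, the protease that activates hepatocyte growth factor, fell from 1019 to 1700 CPM to 360 to 768 CPM (−1.16 ± 0.17, adjusted p = 0.00344, −1.27 ± 0.16 without it), and ARVCF, a catenin, from 406 to 792 CPM to 99.0 to 482 CPM (−1.71 ± 0.25, adjusted p = 0.00404, −2.06 ± 0.18 without it). CHKA, choline kinase, was at 37.6, 44.5, 47.5, 120.5 and 36.9 CPM at B and at 14.9, 9.84, 17, 16.6 and 14.1 CPM at FR20, so that the discordant library lay with the other 4 (−1.81 ± 0.35, adjusted p = 0.01, −1.63 ± 0.37 without it).

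Markers of 4 cell types were called in part, where 3.46% of all genes were called, and their part in the results above was not tested. Hepatocyte markers fell in 4 of 9 tested members and rose in 0 (5 and 0 without the discordant library). The 4 were ALB, TTR, TF and CYP2E1, also counted above among the negative acute phase proteins or the detoxification genes. The highest member was APOB, at a log2 fold change of 0.58. The markers summed to 24973 to 45990 CPM at FR20 in 4 animals and to 243317 CPM in the discordant library. ALB alone was at 195264 CPM there. Of 8 tested T and NK cell markers 1 fell, CD2 (−1.05 ± 0.30, adjusted p = 0.0477, −1.20 ± 0.31 without it), and the sum was 41.1 to 63.6 CPM at B and 22.1 to 53 CPM at FR20. Of the 8, 3 fell without the discordant library. Of 5 neutrophil markers 1 rose, S100A12, at 0 to 0.964 CPM at B and 0 to 6.73 CPM at FR20 (3.03 ± 0.80, adjusted p = 0.0389, 3.28 ± 0.69 without it), with CSF3R and MMP8 at 3 counts or fewer in all 10 libraries. Of 7 hepatic stellate cell markers 1 rose, RGS5 (1.39 ± 0.32, adjusted p = 0.0197), which lost its call without the discordant library since its log2 fold change of 1.00 was just under the threshold, while 1 other member rose in that fit. None of the tested Kupffer cell, B cell, endothelial, cholangiocyte, smooth muscle, adipocyte, erythroid or platelet markers was called by edgeR with all 10 libraries. Of these 27 genes 7 had an unadjusted p under 0.05, where 2660 of all 11779 genes did. DESeq2 called 2 of the 27 higher and 0 lower. Of the 27, 3 rose without the discordant library, both tested adipocyte markers and 1 of 4 cholangiocyte markers. None of the striated muscle and mesothelium markers passed the filter on low counts.

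**Figure D4:**
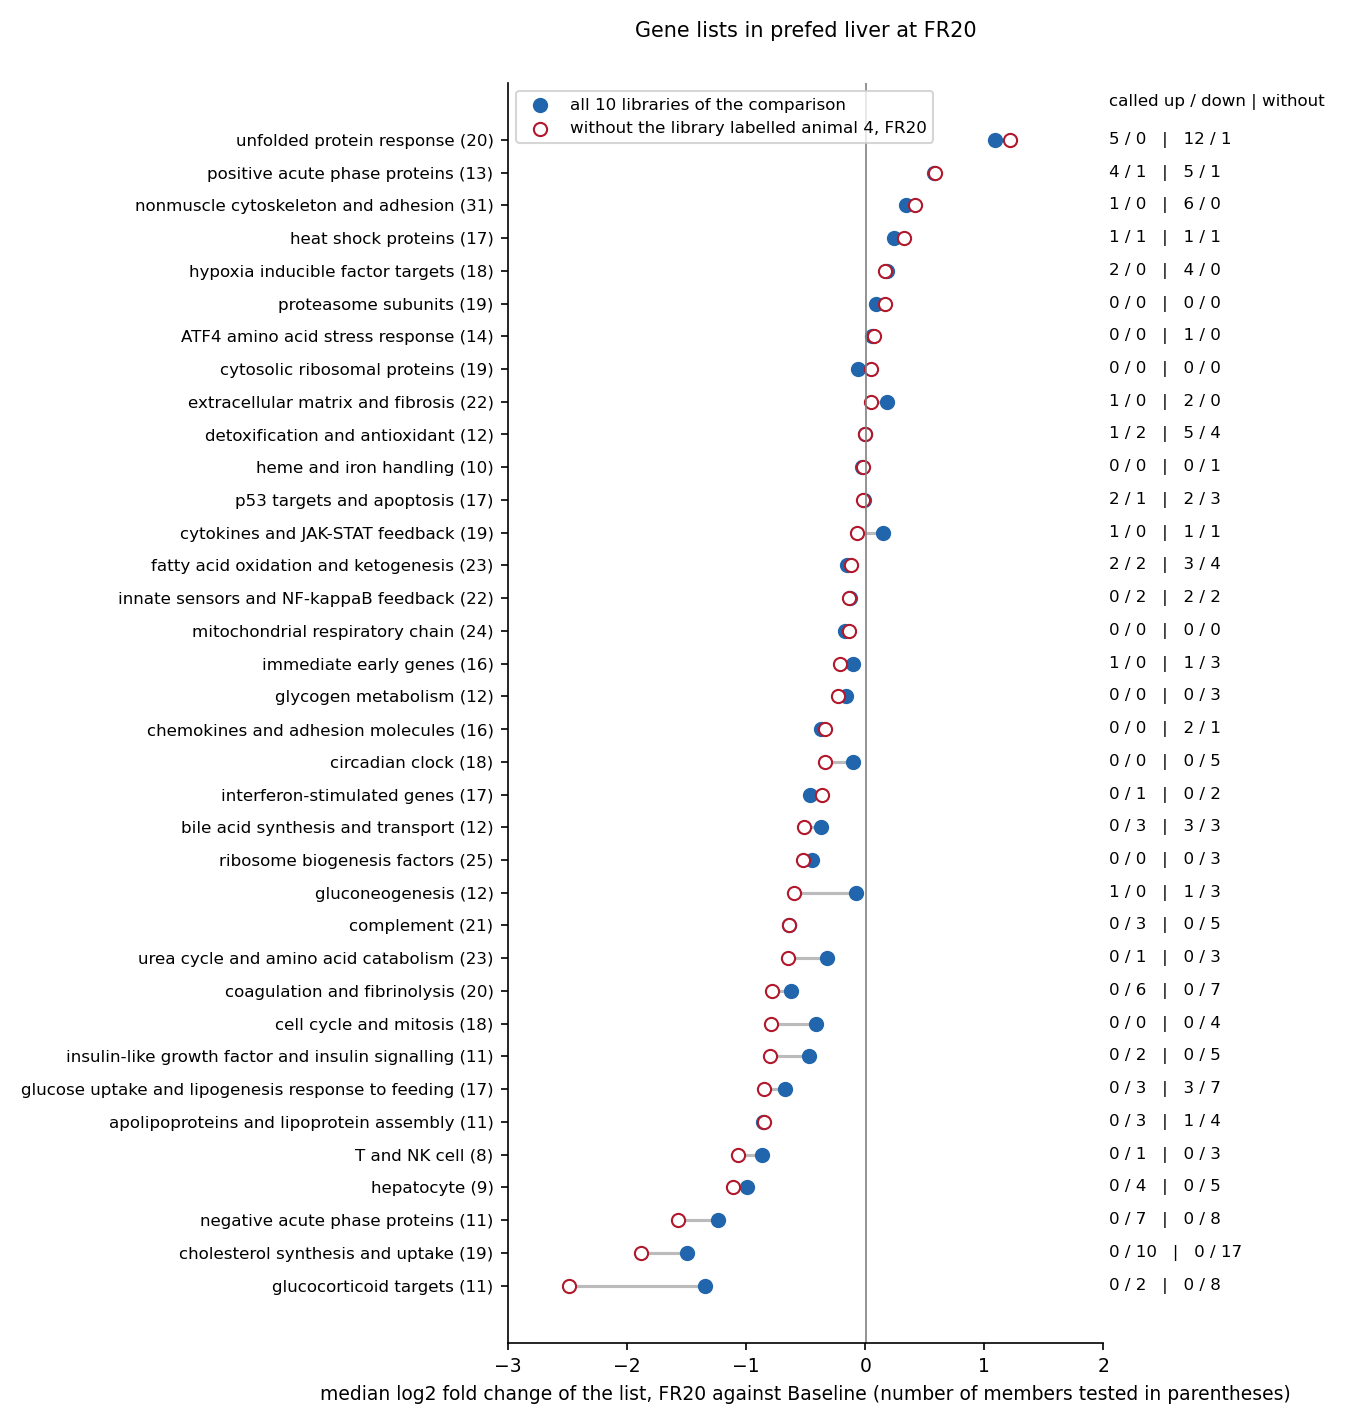
Median log2 fold change at FR20 against B of each gene list with 8 or more tested members, with all 10 libraries of the comparison (filled) and without the discordant library (open). The counts at the right are members called up and down in the 2 fits. The unfolded protein response lies highest, and cholesterol synthesis, negative acute phase proteins and glucocorticoid targets lie lowest.

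A further 7 lists had no called member, where 3.46% of all genes tested were called. None of 18 tested cell cycle genes, 25 ribosome biogenesis factors, 19 cytosolic ribosomal proteins, 19 proteasome subunits, 24 respiratory chain genes, 14 genes of the ATF4 response and 10 heme and iron genes was called in edgeR's quasi-likelihood test with all 10 libraries. Of these 129 genes 21 had an unadjusted p under 0.05, where 2660 of all 11779 genes did. DESeq2 called 0 of the 129 higher and 2 lower. Without the discordant library 4 cell cycle genes, 3 ribosome biogenesis factors and 1 gene of heme and iron handling fell and 1 gene of the ATF4 response rose, while the ribosomal, proteasome and respiratory chain lists still had 0. Among 31 nonmuscle cytoskeleton and adhesion genes 1 rose with all 10 libraries, MYH10, a nonmuscle myosin heavy chain (1.02 ± 0.26, adjusted p = 0.0345), which had a log2 fold change of 0.93 without the discordant library. In that fit 6 others of the list rose, and 0 fell in either.

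The changes were set against those of fasted animals by an interaction term, the FR20 change in 5 CPF animals minus that in 15 FS animals, over 13531 genes. None was called (0%), with 606 genes at an unadjusted p under 0.05, and with DESeq2 0 were called as well (724 at an unadjusted p under 0.05). Without the discordant library 0 were called and 429 had an unadjusted p under 0.05. Without both the discordant library and the library labelled FS animal 7, FR2, 0 were called and 467 had an unadjusted p under 0.05. In the same fit, FS animals had 757 genes higher (5.59%) and 751 lower (5.55%) at FR20. Of the genes called in CPF animals, 163 of the 165 higher and 237 of the 242 lower ones had a change of the same sign in FS animals, and 99 and 169 were called there in that direction.

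Side by side, the log2 fold change of ALB was −1.78 in CPF and −2.40 in FS animals, that of ITIH4 2.92 and 2.72, and that of KHK −1.86 and −2.07. SCD changed by −4.03 in CPF and −2.46 in FS animals, a difference of −1.54 ± 0.74 in the interaction (adjusted p = 1), and HSPA5 by 1.8 and 0.96 (difference 0.87 ± 0.70, adjusted p = 1). CHKA changed by −1.81 in CPF and −0.04 in FS animals (difference −1.74 ± 0.40, adjusted p = 0.33). The values of single genes in this comparison of fed groups include the discordant library, and a p that misses the threshold does not show that the fed groups responded alike.

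**Figure D5:**
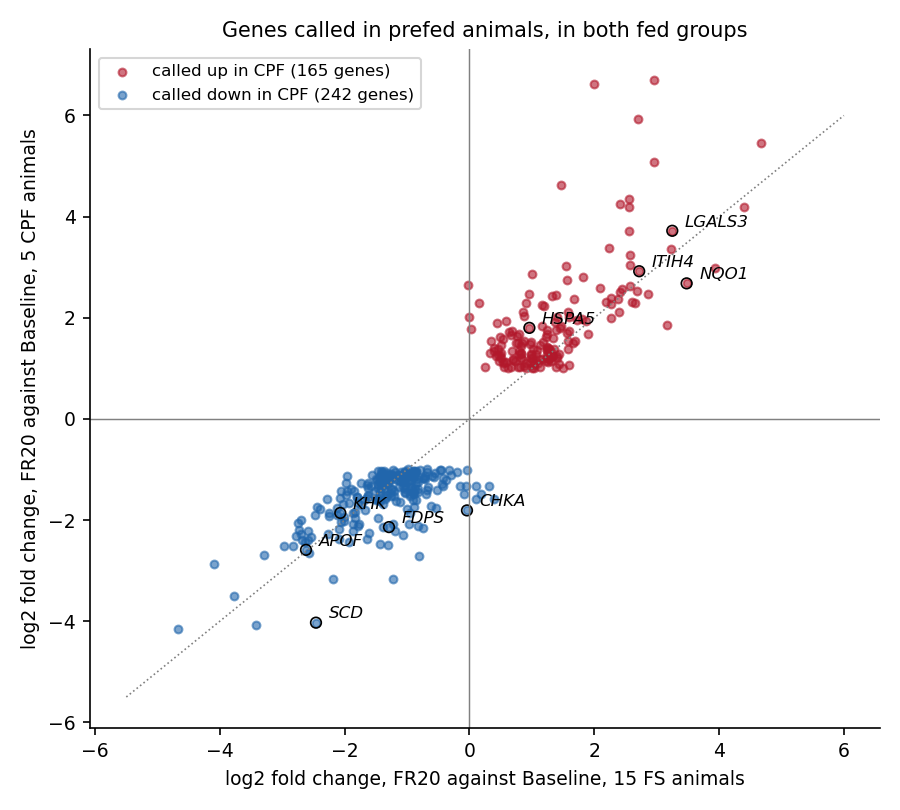
Log2 fold change at FR20 against B in 5 CPF animals (vertical) and 15 FS animals (horizontal) of the 165 genes called up and 242 called down in CPF animals. The dotted line marks equal change, and the empty band around 0 on the vertical axis follows from the threshold. Most points lie in the quadrants of equal sign, and CHKA lies near 0 on the horizontal axis.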

How the data were processed

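Liver RNA of 23 pigs was sequenced at 4 timepoints. Single-end reads had been aligned by TopHat 1.5.0 to Sscrofa10.2 and assigned to Ensembl genes by HTSeq, and the authors deposited the raw counts per gene and library, not pooled. The mode and strand option of HTSeq are not given in the sources used here, so near-identical or overlapping genes may share or lose reads. The table holds 25322 identifiers, of which 12503 were matched to a symbol (11804 in a gene name table, 699 in the study's tables). The FR8 library of CPF animal 1, with 4388 counts in all, was left out, as the authors did.

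Counts of the 19 other CPF libraries were fitted alone with edgeR 4.0.16 in R 4.3.3: TMM scaling, genes with a CPM sum of at least 10, terms for animal and timepoint, quasi-likelihood F test (2-sided), Benjamini-Hochberg adjustment. Residual degrees of freedom were 11, so FR2 and FR8 share in the estimate of spread. The difference between fed groups was an interaction term in a fit of CPF and 15 FS animals. CPM are counts-per-million of the TMM-scaled total and are not corrected for gene length, so levels are compared within a gene only. Total depths, given with the results, set the precision, and 3 counts or fewer were taken as the floor. P-values rest on how far the changes over time varied between animals, pooled over the 4 timepoints. Differences in level between animals are taken up by the animal terms.

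As a check of the pairing, residuals from timepoint means correlated at a median of 0.21 within an animal (21 of 27 pairs over 0.1) and −0.05 between animals (10 of 108), and for the B and FR20 libraries of an animal at 0.11 (3 of 5 over 0.1, lowest −0.21). The pairing comes from animal codes in the titles, and animal terms were kept.

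Named genes are those with the smallest adjusted p and the same direction in 5 of 5 animals, those with the largest changes, called members of 34 pathway and 14 cell type lists, and genes the study names, apart from 2 that are not reported here. OSM, MYH10 and all others follow this rule, and LYPLAL1 and ENSSSCG00000004665 were chosen after their values were seen. The members, lists and tests were chosen with earlier results of these data known. The alternatives were RLE size factors, other filters, DESeq2 1.42.0, edgeR's likelihood ratio test, limma 3.58.1 with quality weights, no animal terms, other sets of libraries and leaving out animals.

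The tests were checked on simulated data. Figures were drawn with matplotlib 3.10.9.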

Additional observations from a re-analysis of the deposited data

Results flagged for a closer look

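In each group of 5 prefed libraries at B and at FR20, the highest or lowest value was compared with the others for every named gene and for the summed cell type markers. In 35 of 186 groups that sample stood apart from the other 4 by Dixon's test at 95%, where chance gives about 1 in 20 groups. The discordant library, labelled animal 4, FR20, accounted for 22 of the 93 groups at FR20, and the remaining 13 groups were spread over other libraries.

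At FR20 the discordant library stood above the other 4 for SCD with 192 CPM, ARVCF with 482 CPM, KHK with 340 CPM, APOF with 897 CPM, SLC10A1 with 516 CPM and BAAT with 732.5 CPM. It stood above them as well for the plasma proteins TF with 27697 CPM, SERPINA6 with 355 CPM, HRG with 10438 CPM, ALB with 195264 CPM and IGFALS with 90.2 CPM. The enzymes GSTT1, BDH1, OTC and CYP1A2 were at 53.7, 258, 771 and 1140 CPM in it, and BAG3, TP53INP1, KLF9 and PER1 at 515, 698, 479.5 and 160 CPM, all above the other 4. MYD88 was below the other 4, with 23.9 CPM. The hepatocyte markers summed to 243317 CPM and the erythroid markers to 1238 CPM in this library, both above the other 4.

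At B, animal 1 stood above the others for HGFAC with 1700 CPM, ITIH4 with 4477 CPM, P4HA2 with 49.1 CPM, LCN2 with 18.6 CPM and CRYAB with 102 CPM. Animal 4 did so at B for MLXIPL with 236.5 CPM and CHKA with 120.5 CPM, animal 2 for S100A12 with 0.964 CPM and animal 5 for PER1 with 199 CPM. Animal 3 stood above the others at both timepoints for MYH10, with 11.9 CPM at B and 23.5 CPM at FR20, and for OSM, with 0.654 CPM at B and 7.24 CPM at FR20.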

How the results depend on the processing

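Of the count of genes called at FR20 against B in CPF animals (407), the value stayed within 1.5 times with RLE size factors (398), 3 other filters on low counts (400, 414 and 447) and the omitted FR8 library kept (448). It was 650 with an adjusted p alone, 683 with DESeq2, 681 with the likelihood ratio test and 1080 with limma's quality weights. It was 109 with no replicate block, 57 higher and 52 lower, 76 with the 10 libraries at B and FR20 alone, and 0 in a fit of all CPF and FS libraries together, where 1515 genes had an unadjusted p under 0.05. Leaving out 1 animal in turn gave 34 to 1047. The alternatives chosen after seeing the data gave 1007 without the FR20 library of animal 4, 832, 988, 655 and 706 when animal 1, 2, 3 or 5 was dropped as well, and 1045 with library totals alone, where 928 were higher. The fits that drop libraries also hold fewer samples. What moved the count was not tested for any setting. The interaction had 0 calls in edgeR's quasi-likelihood test and under every alternative run for it, with 429 to 724 genes at an unadjusted p under 0.05. None of the named genes changed direction under any alternative. Of 81 named genes, 76 were called in edgeR's quasi-likelihood test with all 10 libraries and 5 were not. All 76 lost their call in the fit of all CPF and FS libraries, 63 without animal 5 and 48 with no replicate block. A gene that is not called cannot be taken as unchanged, and genes of low counts, such as OSM and S100A12, rest on few reads.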
